A study of Mus musculus with 10 samples.

Results

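Transcripts of 4 clones of NIH3T3 cells stably overexpressing FOXP2-CPED1 were compared with those of parental NIH3T3 cells and of NIH3T3 cells stably carrying the vector. NIH3T3 is an established line of fibroblasts from mouse embryo. These 6 libraries were chosen by their labels from the 10 of the series, whose other 4 come from clones with FOXP2 alone. The question was which transcripts differ when this construct, an arrangement of FOXP2 per the series' title, is overexpressed. The series calls the clones independent. Each clone, and each control, was sequenced once, so the spread within the clones is a spread between clones, and the spread of the control is that between parental and vector cells. Whether the vector cells went through single-cell cloning is not recorded, so an effect of deriving clones cannot be told apart from an effect of the construct. No label gives a growth or sequencing batch.

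FOXP2 is a forkhead transcription factor that binds DNA and mostly represses its targets, and it is best known for its role in speech and in the developing brain and lung. CPED1 is named for a cadherin-like domain and a PC-esterase domain, and little is known of what it does. The species, promoter and joining point of the introduced FOXP2-CPED1 sequence are not recorded in the labels. Many of the genes below are immediate-early genes, which fibroblasts switch on within minutes of serum, growth factors or mechanical strain, without first making new protein. Serum response factor (SRF) and the MAP kinase pathway drive much of this response.

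Of the 18430 rows of the deposited table of RPKM values (reads scaled by transcript length and by library size), 13862 name 1 gene. After keeping 1 row per symbol and asking for at least 1 RPKM in at least 2 of the 6 libraries, 11258 genes were tested, and 2005 symbols failed the filter. Summed RPKM per library ran from 794682 to 944602, and relative depth, read from the steps between low values, from 0.909 to 1.32 of the parental library. The absolute depth is unknown. Spearman correlations between libraries lay between 0.939 and 0.983, highest between parental and vector cells and lowest between clones 3 and 4. Clone 4 stood apart from the other clones, at -30.8 on the first principal component (39.3% of the variance) against 4.52 to 31.7 for clones 1 to 3 and -13 and -21.6 for parental and vector cells, and on the second component (26.7%) it had -35.2 against -12.4 to 24.9 in the rest. Mitochondrial transcripts were listed at 0 in clone 3, while the remaining 5 libraries held 33213 to 41130 RPKM of them.

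The mouse row of Foxp2 was low in all 6 libraries. Parental cells had 0.0798 RPKM and vector cells 0.0785, and the values were 0.161, 0.169, 0.0674 and 0.330 in clones 1 to 4. Cped1 stood at 24.2 and 27.0 RPKM in the controls and at 16.8, 21.5, 25.4 and 6.69 in the clones, with clone 4 lowest. In two-sided exact permutation tests over the 15 ways of placing 2 controls among 6 libraries, p was 0.3333 for Foxp2 and 0.4 for Cped1, and the smallest p this design allows is 0.0667. Foxp2 failed the filter on low values. These rows do not check the labels, since a sequence of another species or without the measured part of the transcript would not be counted in them.

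Of 11258 genes tested, 55 fell in the clones and 4 rose (0.489% and 0.0355%, 0.524% together). The deepest fall on the scale of RPKM + 1 was that of the nuclear receptor gene Nr4a1 at 14.4-fold. The order of falls in RPKM itself differs, as in Egr3, with means of 51.9 and 3.02 RPKM against 316 and 21.4 for Nr4a1. The mildest was that of AI846148, named after its values were seen, with a log2 fold change of -0.86. Of the 59 genes, 56 differed by at least 2-fold, 52 of them lower. For 54 of the 55 fallen genes the 2 controls lay within 1.5-fold of each other, but the test favours genes with close controls. The median absolute log2 difference between the controls was 0.0765 among the fallen genes and 0.122 over all tested genes. Tests were made with limma on log2(RPKM + 1), two-sided, with Benjamini-Hochberg adjustment over all tested genes and a threshold of 0.05. Folds and log2 fold changes refer to that scale, which shrinks changes of low genes. The median log2 fold change of all tested genes was 0.000141. All 4 clones lay below both controls for 1517 genes (13.5%) and above both for 1385 (12.3%), and 751 genes on the lower and 551 on the higher side had an unadjusted p under 0.05 (11.6% together). The calls rest on having both controls: without the parental library 0 genes passed (smallest adjusted p = 0.129, limma; 304 lower and 198 higher at an unadjusted p under 0.05), and without the vector library 1 fell and 0 rose. Without clone 1, 26 fell and 1 rose, without clone 2, 33 and 2, without clone 3, 23 and 1, and without clone 4, 152 and 33. Leaving out any 1 library made the log2 fold change of none of the 53 called genes named here more than 1.12 times as large. Since each culture was sequenced once, p-values reflect how these particular cultures differ.

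**Figure D1:**
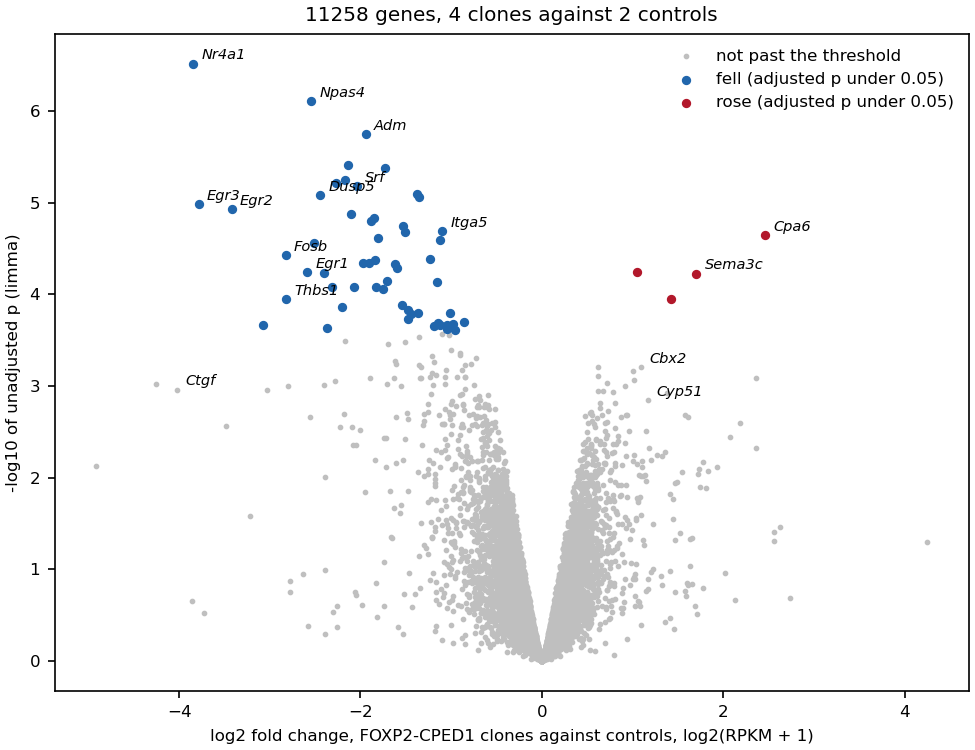
Each point is 1 of 11258 tested genes, with the log2 fold change of the 4 FOXP2-CPED1 clones against the 2 controls on the horizontal axis and -log10 of the unadjusted limma p on the vertical axis. The 55 genes that fell are on the left in blue and the 4 that rose on the right in red.

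The 3 deepest falls in log2(RPKM + 1) were those of the immediate-early factors Nr4a1, Egr3 and Egr2, and 5 further members of that list fell by less. Nr4a1, an orphan nuclear receptor induced within minutes by growth factors, had 317 RPKM in parental cells, 315 in vector cells and 18.5, 16.6, 25.2 and 25.2 in clones 1 to 4. All clones lay far below both controls, and the controls lay close to each other. Its log2 fold change was -3.85 ± 0.20 (SE; 4 of 4 clones lower, adjusted p = 0.00341, limma). The zinc finger factors of the EGR family, which serum also induces, fell together. Egr3 went from 49.0 and 54.7 RPKM in parental and vector cells to 4.31, 1.38, 2.40 and 4.00 in the clones (-3.79 ± 0.33). Egr2 went from 45.3 and 49.5 to 2.31, 4.21, 2.54 and 5.86 (-3.42 ± 0.30), with clone 4 nearest to the controls. Egr1, the most abundant of them in these cells, went from 174 and 179.6 to 25.8, 40.1, 18.3 and 34.7 RPKM (-2.59 ± 0.29). Adjusted p was 0.00968 for Egr3, 0.0102 for Egr2 and 0.0196 for Egr1 (limma).

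Fosb, a subunit of the AP-1 factor, stood at 28.9 and 28.0 RPKM in the controls and at 3.57, 3.58, 1.55 and 4.57 in the clones (log2 fold change -2.83 ± 0.30, adjusted p = 0.0174, limma). A pair of genes best known from active neurons were also present in these fibroblasts and fell. Npas4, a basic helix-loop-helix factor, went from 10.4 and 11.03 RPKM to 0.890, 1.000, 1.22 and 0.945 (-2.54 ± 0.15, adjusted p = 0.00438). Arc, which acts at synapses, went from 8.51 and 9.33 to 1.16, 1.27, 0.673 and 1.17 RPKM (-2.27 ± 0.18, adjusted p = 0.00893). Srf itself, the factor that switches on many of these genes, went from 56.5 and 50.4 RPKM to 13.0, 11.5, 10.1 and 14.8 (-2.04 ± 0.17, adjusted p = 0.00893). For each of these 8 genes no clone overlapped a control.

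Of the 27 immediate-early genes listed, 25 were tested. Of these, 8 fell and 0 rose (against 0.489% of all tested genes that fell), and all clones lay below both controls for 22 of 25 (against 13.5% of all genes). Their median log2 fold change was -1.21. Of those that did not pass, 4 are given here, named after their values were seen. The AP-1 gene Junb stood at 225 and 202 RPKM in the controls and 75.6 to 120.3 in the clones (adjusted p = 0.0763, limma), and the partner factor Fosl1 at 78.8 and 67.6 against 17.8 to 36.4 (adjusted p = 0.106). Ier5, an immediate-early regulator of the heat shock response, stood at 59.2 and 58.6 against 19.5 to 33.97, and the small MAF protein gene Maff at 25.6 and 20.8 against 12.4 to 14.0. Summed over the 25 tested members, RPKM was 2068 and 1978 in the controls and 705.6, 858, 724.2 and 1050.0 in clones 1 to 4. Clone 4 was the nearest to the controls for 14 of the 22 genes below both controls. The count of fallen members was 0 without either control, 6 without clone 1, 8 without clone 2 or clone 3, and 14 without clone 4.

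**Figure D2:**
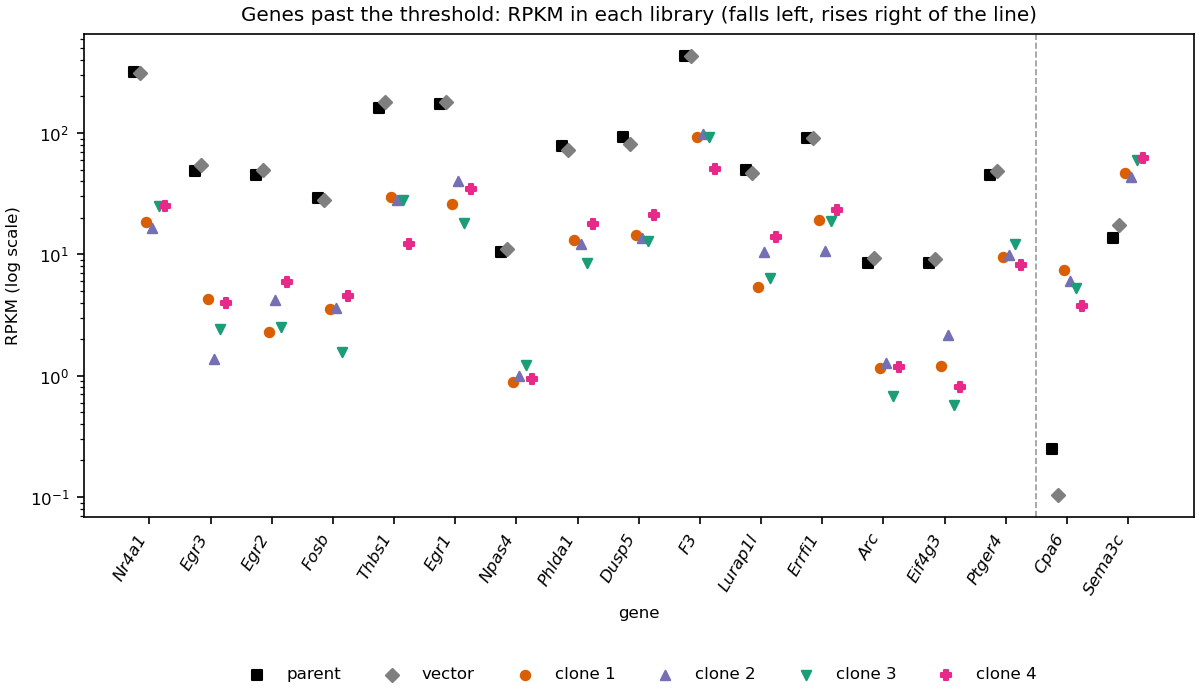
RPKM on a log axis in each of the 6 libraries for the 15 genes with the largest falls by the naming rule and for Cpa6 and Sema3c, which rose. Black squares and grey diamonds are the parental and vector cells and coloured symbols are clones 1 to 4. In each gene the 4 clones lie on 1 side of both controls, as the naming rule requires.

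SRF binds the CArG box, a run of A and T bases between CC and GG. Sequences upstream of the start sites are shown for 4 fallen genes that carry such letters, Srf, Dusp5, Fhl2 and Lurap1l, because Srf was itself among the fallen genes. Each is the 250 bases before the first listed start in RefSeq (assembly GRCm38.p6, a later build than the mm9 the submitters' notes name, so these positions apply to GRCm38.p6), 5′ to 3′, with the CArG letters in capitals. The regions are chr17:46556163-46556412 (minus strand) for Srf, chr19:53528895-53529144 (plus strand) for Dusp5, chr1:43196762-43197011 (minus strand) for Fhl2 and chr4:80910436-80910685 (plus strand) for Lurap1l.
Srf: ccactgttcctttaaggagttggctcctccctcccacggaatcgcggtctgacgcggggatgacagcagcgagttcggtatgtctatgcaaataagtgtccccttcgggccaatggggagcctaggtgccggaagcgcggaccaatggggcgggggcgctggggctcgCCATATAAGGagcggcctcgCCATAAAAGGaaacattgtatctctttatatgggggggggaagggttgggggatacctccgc
Dusp5: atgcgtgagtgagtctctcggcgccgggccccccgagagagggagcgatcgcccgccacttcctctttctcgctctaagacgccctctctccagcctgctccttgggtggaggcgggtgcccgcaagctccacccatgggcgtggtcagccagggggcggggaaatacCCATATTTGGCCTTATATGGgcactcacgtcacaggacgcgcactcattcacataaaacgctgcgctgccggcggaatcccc
Fhl2: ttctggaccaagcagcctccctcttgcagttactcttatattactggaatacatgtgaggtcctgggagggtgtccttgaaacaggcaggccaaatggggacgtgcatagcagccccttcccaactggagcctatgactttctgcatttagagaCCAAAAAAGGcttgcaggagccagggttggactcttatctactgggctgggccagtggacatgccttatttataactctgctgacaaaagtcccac
Lurap1l: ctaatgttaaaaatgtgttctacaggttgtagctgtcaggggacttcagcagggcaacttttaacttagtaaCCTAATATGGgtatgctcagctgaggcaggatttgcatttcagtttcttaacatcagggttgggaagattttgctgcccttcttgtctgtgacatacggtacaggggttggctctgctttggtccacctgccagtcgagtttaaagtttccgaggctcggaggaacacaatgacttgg
Srf has 2 such runs, CCATATAAGG starting 82 bases and CCATAAAAGG starting 62 bases before the start site, and Dusp5 has 2 that abut, CCATATTTGG at 82 and CCTTATATGG at 72 bases before. Fhl2 has CCAAAAAAGG at 96 and Lurap1l CCTAATATGG at 178 bases before the start. In the window from 250 bases before to 50 after the start, searched on both strands, the CArG box was present for 6 of the 40 fallen genes that matched the RefSeq table by symbol (15%), the other 2 being Lmcd1 and Prkab2. Nr4a1, Egr2, Fosb and Npas4 had no match in this window, and 1 of the 18 tested immediate-early genes that matched had one (5.56%). The box was present in 1.57% of all 27025 promoters and in 1.37% of those of the 7812 tested genes that matched. Of the other motifs searched, the AP-1 site TGANTCA was found in 1 of 40 (2.5%, against 7.93% of all promoters and 4.94% of those of tested genes), the cAMP response element TGACGTCA in 2 of 40 (5%, against 1.88% and 3.52%) and the forkhead site GTAAACA in 1 of 40 (2.5%, against 3.55% and 2.29%). In Lmcd1 the CArG and cAMP response letters both occur and do not overlap. A match describes letters and shows no binding. Arc, Egr1, Egr3, Phlda1 and Thbs1 were among the 15 fallen genes without a match to the table.

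Of the genes that dampen MAP kinase and receptor signalling, 3 fell. Dusp5, a nuclear phosphatase for ERK, stood at 93.4 and 81.5 RPKM in the controls and at 14.6, 13.5, 12.8 and 21.0 in clones 1 to 4 (log2 fold change -2.45 ± 0.21, adjusted p = 0.00893, limma). Phlda1, a pleckstrin homology-like protein induced by growth factors, went from 78.2 and 72.8 RPKM to 13.1, 12.1, 8.44 and 17.7 (-2.51 ± 0.25, adjusted p = 0.0135). Errfi1, an inhibitor of the EGF receptor, stood at 90.3 in both controls and fell to 19.2, 10.6, 18.9 and 23.2 (-2.32 ± 0.28, adjusted p = 0.0242). The highest clone value of each of the 3 genes was clone 4's, and it was less than 1/3 of the lower control. Of 17 tested genes of MAPK feedback, these 3 fell, 0 rose, and all clones lay below both controls for 7 and above both for 1 (of all tested genes 0.489% fell, 13.5% lay below and 12.3% above). The median of the list was -0.335, and 7 of 17 members had a positive log2 fold change. The phosphatase genes Dusp6 and Dusp8 and the inhibitor Spry2 lay below both controls in all clones without passing (Dusp6 and Spry2 were named after their values were seen). Dusp6 stood at 54.0 and 51.8 RPKM against 11.98 to 24.4 (adjusted p = 0.0969, limma), Dusp8 at 10.1 and 10.01 against 2.45 to 4.88, and Spry2 at 19.6 and 20.02 against 4.80 to 9.95 (adjusted p = 0.147). Clone 4 was the nearest to the controls for 7 of 7. The 3 calls became 0 without either control, 1 without clone 1, 2 without clone 2 or clone 3, and 6 without clone 4. Of 19 tested ligands and receptors of the EGF, FGF and PDGF type, 0 passed.

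The next list holds actin and muscle-type cytoskeletal genes, many of which SRF and its cofactor MRTF control. Of 24 tested, 3 fell, 0 rose, and all clones lay below both controls for 15 (of all tested genes 0.489% fell and 13.5% lay below), with a median log2 fold change of -0.55. Lmod1, which nucleates actin filaments in muscle, stood at 3.40 and 3.17 RPKM in the controls and at 0.132, 0.390, 0.0925 and 0.191 in the clones (-1.84 ± 0.20, adjusted p = 0.0181, limma). It met the filter only through the controls, as did 4 fallen genes in all. Filip1l, a filamin-interacting protein, went from 71.2 and 68.2 RPKM to 26.3, 20.5, 21.7 and 15.4 (-1.71 ± 0.20, adjusted p = 0.023). Fhl2, a LIM-domain cofactor at focal adhesions whose promoter is shown above, went from 98.2 and 103 to 42.0, 37.6, 26.7 and 40.7 (-1.45 ± 0.19, adjusted p = 0.0381). In all 3 genes every clone lay below 1/2 of either control. Zyx, a focal adhesion protein, did not pass, at 234 and 235 RPKM against 101, 113, 78.4 and 130.2 (adjusted p = 0.0969).

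Smooth muscle actin and its partners varied widely between clones. Acta2, the actin of smooth muscle, stood at 482 and 491 RPKM in the controls and at 71.9, 210.4, 87.3 and 414 in clones 1 to 4. Tagln, an actin cross-linker, stood at 70.3 and 68.5 against 13.5, 25.1, 13.7 and 36.6, and Myl9, a myosin light chain, at 29.4 and 25.8 against 4.50, 9.52, 5.12 and 13.9. Clone 4 was the highest clone for each of these genes, which were named after their values were seen, and none passed. Over the list, clone 4 was the nearest to the controls for 11 of the 15 genes below both controls, and 8 of 24 members lay above the control mean in clone 4 against 1 or 2 in the other clones. The 3 calls of the list became 0 without either control, 1 without clone 1, clone 2 or clone 3, and 7 without clone 4.

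Targets of the cofactor YAP and the TEAD transcription factors included Ctgf, Cyr61 and Ankrd1, whose large differences missed the threshold. Of 18 tested, F3 and Gadd45b fell, 0 rose, all clones lay below both controls for 8 (of all tested genes 0.489% fell and 13.5% lay below), and the median was -0.147. F3, which encodes the tissue factor of the clotting cascade, had 433 RPKM in both controls and 91.8, 98.9, 92.7 and 50.7 in the clones (log2 fold change -2.41 ± 0.27, adjusted p = 0.0196, limma), so clone 4 was here the lowest. Gadd45b, a stress sensor that binds MAP kinase kinases, went from 64.7 and 54.2 RPKM to 22.2, 31.7, 24.6 and 24.2 (-1.19 ± 0.17, adjusted p = 0.0446). Ctgf, a secreted matrix protein of the CCN family, stood at 350.0 and 374 RPKM against 11.4, 26.6, 9.09 and 70.8. Its log2 fold change of -4.02 ± 0.74 did not pass (adjusted p = 0.113), and the clones spanned from 9.09 to 70.8. Without clone 4 it was -4.58 with adjusted p = 0.00737, and over all alternatives its adjusted p ran from 0.00242 to 0.814. Cyr61, of the same family, stood at 744 and 731 RPKM against 95.9, 113, 50.3 and 221 (adjusted p = 0.106), and Ankrd1, a nuclear ankyrin protein named after its values were seen, at 61.4 and 58.5 against 5.52, 11.9, 4.995 and 22.1 (adjusted p = 0.148). The 2 calls of the list became 0 without either control, clone 1 or clone 3, 1 without clone 2, and 6 without clone 4. The median was -0.228 without clone 4.

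**Figure D3:**
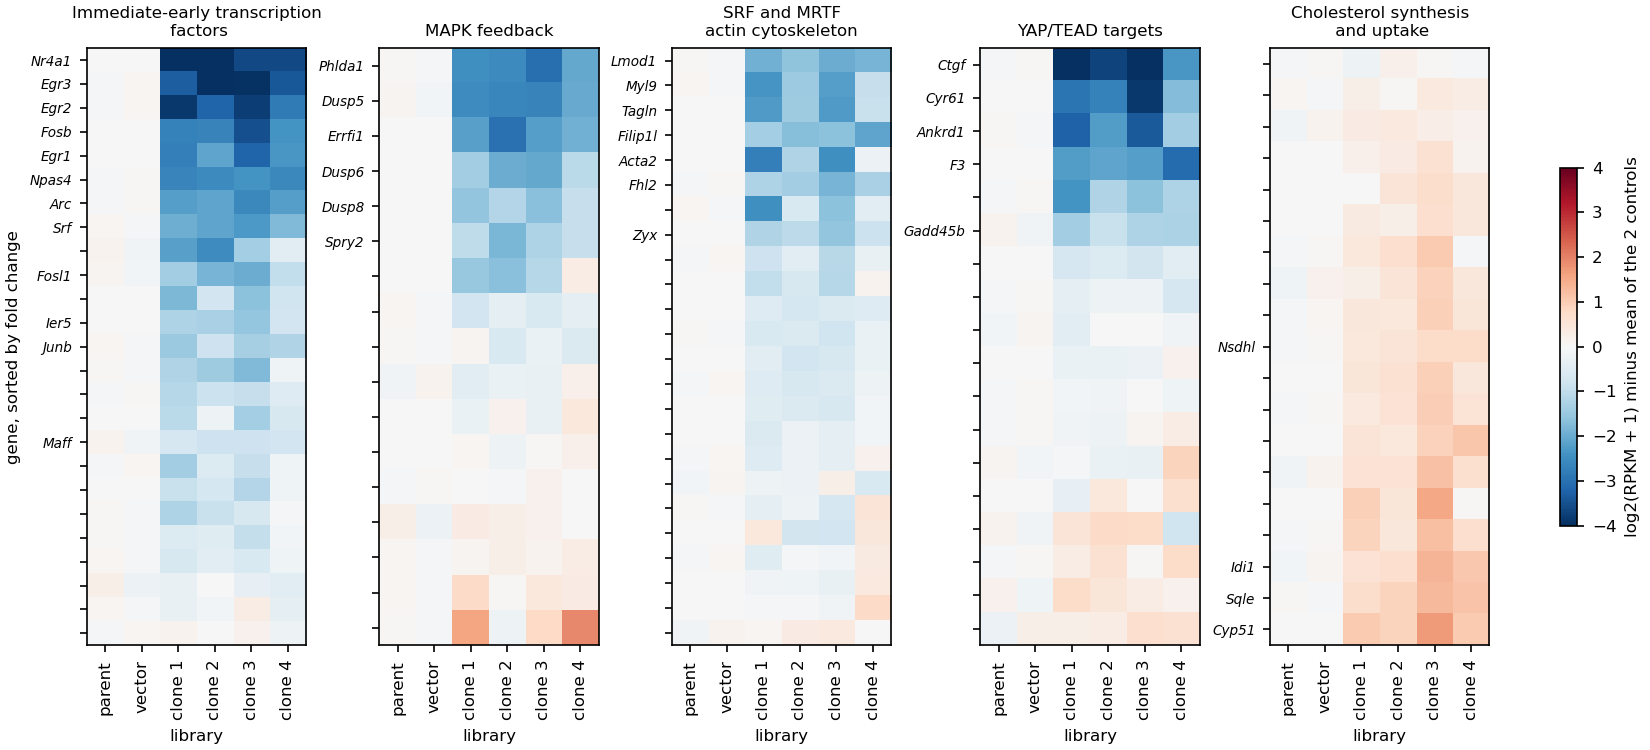
Colour gives log2(RPKM + 1) in each library minus the mean of the 2 controls, for every tested member of 5 gene lists sorted by log2 fold change (columns: parental, vector, clones 1 to 4), with names for the genes given in the text. Immediate-early genes are blue across the clones and palest in clone 4 for 14 of the 22 below both controls, while cholesterol genes are mostly red.

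In Plau, Plaur and Inhba, as in Ctgf, clone 4 lay nearer to the controls than the other clones. Plau, urokinase, a secreted protease, stood at 31.6 and 32.6 RPKM in the controls against 4.604, 5.69, 4.80 and 17.9 in the clones (adjusted p = 0.197, limma), and its receptor gene Plaur at 107 and 105 against 20.2, 19.7, 15.3 and 54.4 (adjusted p = 0.157). Inhba, a subunit of activin, stood at 32.8 and 35.3 against 5.70, 6.74, 4.89 and 17.8 (adjusted p = 0.165). None of these 3 genes passed with all libraries, and without clone 4 adjusted p was 0.000871 for Plau, 0.00155 for Plaur and 0.00161 for Inhba. Over the alternatives, adjusted p of each of these genes rose as far as 0.991, without the parental library. Of 23 tested genes of the TGF-beta pathway 0 passed (against 0.524% of all tested genes). All clones lay below both controls for 9 of them and above both for 2 (against 13.5% and 12.3%), and the list's median was -0.30. By clone, the list medians were -0.194, -0.203, -0.367 and -0.508, lowest in clone 4. Id1, an inhibitor of helix-loop-helix factors and a target of BMP signalling, stood at 149 and 130.1 RPKM against 33.0 to 71.1 (adjusted p = 0.151).

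Among matrix and adhesion genes, 1 in each of 2 lists fell. Thbs1, thrombospondin 1, a secreted glycoprotein that activates TGF-beta, stood at 160.2 and 179.5 RPKM in the controls and at 29.8, 28.2, 28.2 and 12.1 in the clones (log2 fold change -2.82 ± 0.36, adjusted p = 0.0301, limma). It was the 1 of 31 tested fibrillar and structural matrix genes to pass, and the median of that list was 0.0106. Itga5, the alpha subunit of the fibronectin receptor, went from 126 and 124 RPKM to 55.1, 57.9, 57.2 and 61.5, with the clones close to each other (-1.10 ± 0.11, adjusted p = 0.0125). It was the 1 of 13 tested integrin subunits to pass (of all tested genes 0.489% fell and 0.0355% rose). A pair of basement membrane genes stood higher without passing. Lama4, a laminin chain, stood at 2.98 and 3.29 RPKM against 16.6, 9.99, 15.8 and 6.77 (adjusted p = 0.148), and Nid1, which links laminin to collagen IV, at 82.7 and 95.5 against 316, 139.9, 231 and 175 (adjusted p = 0.226). Of 16 tested proteases and inhibitors, Cpa6 rose and 0 fell. Timp3, an inhibitor of matrix metalloproteases, stood at 173 and 163 against 81.6 to 116 (adjusted p = 0.147).

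Outside these groups, 6 further genes of the naming rule fell. Adm, the vasodilator peptide adrenomedullin, stood at 114 and 118 RPKM in the controls and at 29.4, 27.2, 27.8 and 34.2 in the clones (log2 fold change -1.94 ± 0.13, adjusted p = 0.00664, limma). Ptger4, a prostaglandin E2 receptor, went from 44.9 and 48.4 RPKM to 9.45, 9.84, 12.1 and 8.11 (-2.14 ± 0.16, adjusted p = 0.00893). Slc2a1, the main glucose transporter of fibroblasts, went from 106 and 105 to 51.0, 57.4, 44.7 and 56.1 (-1.01 ± 0.14, adjusted p = 0.0381). Adm and Slc2a1 were the members that passed of 28 tested glycolysis and hypoxia genes (of all tested genes 0.489% fell). The median of that list was 0.114, on the other side of zero. Eif4g3, a scaffold of the translation initiation complex, stood at 8.44 and 9.07 RPKM against 1.20, 2.17, 0.574 and 0.810 (-2.21 ± 0.29, adjusted p = 0.0347), and Lurap1l, of little known function, at 49.2 and 47.0 against 5.40, 10.5, 6.41 and 13.8 (-2.37 ± 0.34, adjusted p = 0.0455). Dnajb4, a co-chaperone of HSP70, went from 58.9 and 57.7 to 20.1, 22.3, 22.1 and 24.2 (-1.36 ± 0.12, adjusted p = 0.00893). It was the 1 of 14 tested heat shock chaperones to pass, and the list's median was -0.0915.

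In all, 24 of the 55 fallen genes belonged to one of the 40 lists and 31 to none. The genes of this paragraph and the next were named after their values were seen. Regulators of G proteins and small GTPases were among them: Rgs3 went from 21.1 and 22.7 RPKM to 6.34, 6.35, 8.42 and 6.64, Rgs16 from 3.64 and 4.35 to 0.961, 0.421, 0.723 and 0.793, the exchange factor Fgd3 from 9.94 and 9.99 to 1.37, 1.31, 1.36 and 2.28, and the GTPase Arl4d from 21.2 and 21.8 to 5.06, 5.01, 4.30 and 6.77. Adjusted p for these ran from 0.0108 (Fgd3) to 0.0345 (Rgs16, limma). Rgs16, like Lmcd1 below, met the filter only through the controls. Others were as follows. Irak2, a kinase-like protein of interleukin 1 receptor signalling, went from 40.0 and 30.6 RPKM to 7.51, 9.25, 8.02 and 10.5. Nedd9, a docking protein at focal adhesions, went from 15.9 and 17.1 to 4.59, 5.72, 5.92 and 4.58. Trib1, a pseudokinase, went from 72.5 and 75.0 to 20.7, 16.9, 18.5 and 26.2, and Palld, which organises actin, from 56.9 and 59.6 to 30.3, 23.1, 25.1 and 24.7.

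Transcription cofactors in this remainder fell by about 2-fold to 3-fold in RPKM + 1. Lmcd1, with means of 3.64 and 0.532 RPKM, fell by more in RPKM itself. Cited2, a CBP/p300 partner, went from 206 and 176 RPKM to 103, 78.2, 93.3 and 93.6. Lbh, a cofactor from limb and heart development, went from 58.0 and 57.0 to 19.7, 17.6, 27.6 and 16.9, Zfp281, a zinc finger factor, from 15.6 and 17.4 to 7.10, 7.07, 7.15 and 6.73, and Lmcd1, a LIM cofactor, from 3.99 and 3.30 to 0.504, 0.418, 0.621 and 0.586. Adjusted p ran from 0.013 (Zfp281) to 0.0442 (Cited2, limma). Ptx3, a secreted pattern recognition protein, went from 193 and 173 to 101, 95.8, 79.8 and 98.6 RPKM (log2 fold change -0.96 ± 0.14). The other fallen genes with ordinary symbols were Cfap43, Mob3a, Plekho2, Pxdc1, Prkab2, Zswim4, Sertad4 and the long noncoding RNA Bvht, with log2 fold changes from -1.72 (Cfap43) to -0.98 (Sertad4). Of the 59 genes called in either direction, 9 carry model or clone names, and 3 have symbols with several rows, so their values may share reads with a copy.

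The 4 risen genes include 2 with a known protein. Cpa6, a secreted carboxypeptidase, had 0.246 RPKM in parental cells, 0.104 in vector cells and 7.37, 6.03, 5.28 and 3.76 in clones 1 to 4 (log2 fold change 2.47 ± 0.24, adjusted p = 0.0127, limma). Sema3c is a secreted semaphorin that guides axons and migrating cells through neuropilin and plexin receptors. It went from 13.6 and 17.4 RPKM to 46.7, 43.2, 59.8 and 62.7, a rise of 3.26-fold in RPKM + 1 (1.70 ± 0.19, adjusted p = 0.0196, limma). Each clone stood above 2 times the higher control for both genes. The predicted genes Gm16867 (57.9 and 55.8 against 125, 114, 128 and 108 RPKM) and Gm10487 (0.193 and 0.184 against 2.31, 2.56, 1.84 and 2.12), named after their values were seen, were the others. Cpa6 and Gm10487 lay under 1 RPKM in both controls, so they met the filter only through the clones. Of 15 tested semaphorins, neuropilins and plexins, Sema3c rose and Plxna4, a plexin, fell (of all tested genes 0.0355% rose and 0.489% fell). Plxna4 went from 3.56 and 4.16 RPKM to 0.575, 0.883, 1.00 and 0.536 (-1.48 ± 0.20, adjusted p = 0.0372, limma).

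The next genes by p on the higher side lay above both controls in all clones but missed the threshold. Cbx2, a Polycomb protein, stood at 3.34 and 3.604 RPKM against 8.65, 9.36, 10.03 and 6.44 (adjusted p = 0.0889, limma). Slc25a37, a mitochondrial iron importer, stood at 19.6 and 19.8 against 30.2, 29.5, 32.0 and 32.0 (adjusted p = 0.0889), and Efna1, a membrane-bound ephrin ligand, at 6.66 and 5.75 against 14.9, 15.4, 13.4 and 10.6 (adjusted p = 0.0931). Etl4 had the largest log2 fold change of this set, from 0.208 and 0.266 RPKM in the controls to 2.30, 1.33, 2.27 and 3.22 (1.38 ± 0.26, adjusted p = 0.117, limma). Like Cpa6 and Gm10487, Etl4 lay under 1 RPKM in both controls and met the filter only through the clones. The others were the nucleolar gene Gnl3 (0.78), the tRNA modifier Trit1 (0.92), the uracil glycosylase Ung (0.81), the glycosylation genes Alg6 (0.72) and Uggt2 (0.67), the TFIID subunit Taf2 (0.62), and Nepro (0.62, 1 gene identifier listed under the names BC027231 and Nepro), with log2 fold changes in brackets and adjusted p from 0.0969 (Nepro) to 0.137 (Ung).

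Cholesterol genes stood higher as a group without any passing. The pathway builds cholesterol from acetyl-CoA and is switched on by the factor SREBP2 when sterols run low. Of 19 tested, 0 passed in either direction with limma (against 0.524% of all tested genes). All clones lay above both controls for 15 of 19 (against 12.3%), and the median log2 fold change was 0.601. The members with the smallest p follow. Sqle, squalene epoxidase, stood at 37.0 and 35.1 RPKM in the controls and at 59.7, 68.0, 90.3 and 81.2 in the clones (adjusted p = 0.102). Cyp51, a sterol demethylase, stood at 44.0 and 43.1 against 91.8, 81.3, 143 and 90.7 (adjusted p = 0.131), and Nsdhl, a sterol dehydrogenase, at 7.02 and 7.39 against 9.89, 10.8, 12.7 and 12.6 (adjusted p = 0.189). Idi1, an isomerase earlier in the pathway, stood at 12.6 and 14.7 against 21.0, 22.5, 36.7 and 30.2 (adjusted p = 0.218). The medians of clones 1 to 4 over the list were 0.427, 0.517, 0.945 and 0.449, so clone 3 was the highest, and vector minus parental cells gave 0.0637. Of 14 tested fatty acid synthesis genes, 0 passed and all clones lay above both controls for 5 (against 12.3% of all tested genes). Among these were Acaca, acetyl-CoA carboxylase (8.27 and 11.2 against 15.2 to 22.2 RPKM), Acly, ATP citrate lyase (59.1 and 63.3 against 85.0 to 116) and Fasn, fatty acid synthase (42.4 and 39.3 against 50.9 to 59.95). The median of that list was -0.0289.

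Further lists had negative medians with few or no calls (of all tested genes 0.489% fell). Of 19 tested p53 targets, Plk3, a Polo-like kinase, fell from 16.8 and 14.8 RPKM to 3.10, 2.31, 2.21 and 4.69 (log2 fold change -2.08 ± 0.25, adjusted p = 0.0242, limma), and the median was -0.26 (-0.12 without clone 3 and -0.399 without clone 4, limma). The count of 1 became 0 without either control, clone 1 or clone 3, and 4 without clone 4. Btg2, an antiproliferative protein, stood at 38.9 and 39.5 RPKM against 6.18, 9.13, 3.94 and 16.2 (adjusted p = 0.147), Plk2, a related kinase, at 189.5 and 185 against 34.6, 39.0, 25.2 and 102 (adjusted p = 0.198), and the death receptor Fas at 36.7 and 34.03 against 12.9, 21.6, 12.4 and 12.9 (adjusted p = 0.117). Of 25 tested chemokines, cytokines and NF-kB genes 0 passed and 11 lay below both controls in all clones (against 13.5% of all tested genes; median -0.40). The NF-kB subunit Rela stood at 53.1 and 51.0 RPKM against 34.9 to 37.9 and the inhibitor Nfkbia at 69.3 and 62.6 against 22.3 to 37.0 (adjusted p = 0.142 for both). Of 24 tested NRF2 targets and glutathione genes 0 passed and 13 lay below both controls (against 13.5% of all tested genes; median -0.366). Nqo1, a quinone reductase, stood at 164 and 154 against 70.5 to 110.5 RPKM, and Gsta4, a glutathione transferase, at 268 and 237 against 81.1 to 148.

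Of the forkhead genes 1 passed, and of the genes that earlier work named as FOXP2 targets 0 (of all tested genes 0.489% fell and 0.0355% rose). At these shares, 0 of 17 cannot be told apart from all tested genes. Of 17 tested forkhead genes, Foxs1 fell from 13.7 in both controls to 2.25, 4.11, 4.15 and 3.19 RPKM (log2 fold change -1.75 ± 0.21, adjusted p = 0.0248, limma), and the median was -0.0147. In Foxn3 the controls differed, with 123 RPKM in parental and 24.4 in vector cells, and the clones had 4.43, 6.86, 6.27 and 6.23. It did not pass (adjusted p = 0.114), and its log2 fold change was -3.03, -1.88 without the parental and -4.17 without the vector library. In the latter setting it was the 1 gene that fell (adjusted p = 0.0357). Of 17 tested genes reported elsewhere as FOXP2 targets, 0 passed, 3 lay below and 2 above both controls in all clones (near the 13.5% and 12.3% of all tested genes), and the median was -0.0147. Mef2c, a transcription factor of muscle and neurons on that list, stood at 1.603 and 3.34 RPKM against 4.10 to 6.58 (adjusted p = 0.315). In the Wnt list 0 of 17 passed, with the receptor gene Fzd7 at 80.0 and 80.6 against 36.5 to 54.3 RPKM (adjusted p = 0.137), and in the Notch (7 tested), interferon (16), basement membrane (12), oxidative phosphorylation (36), histone (19), stress response (33) and imprinted gene lists (12) 0 passed as well.

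**Figure D4:**
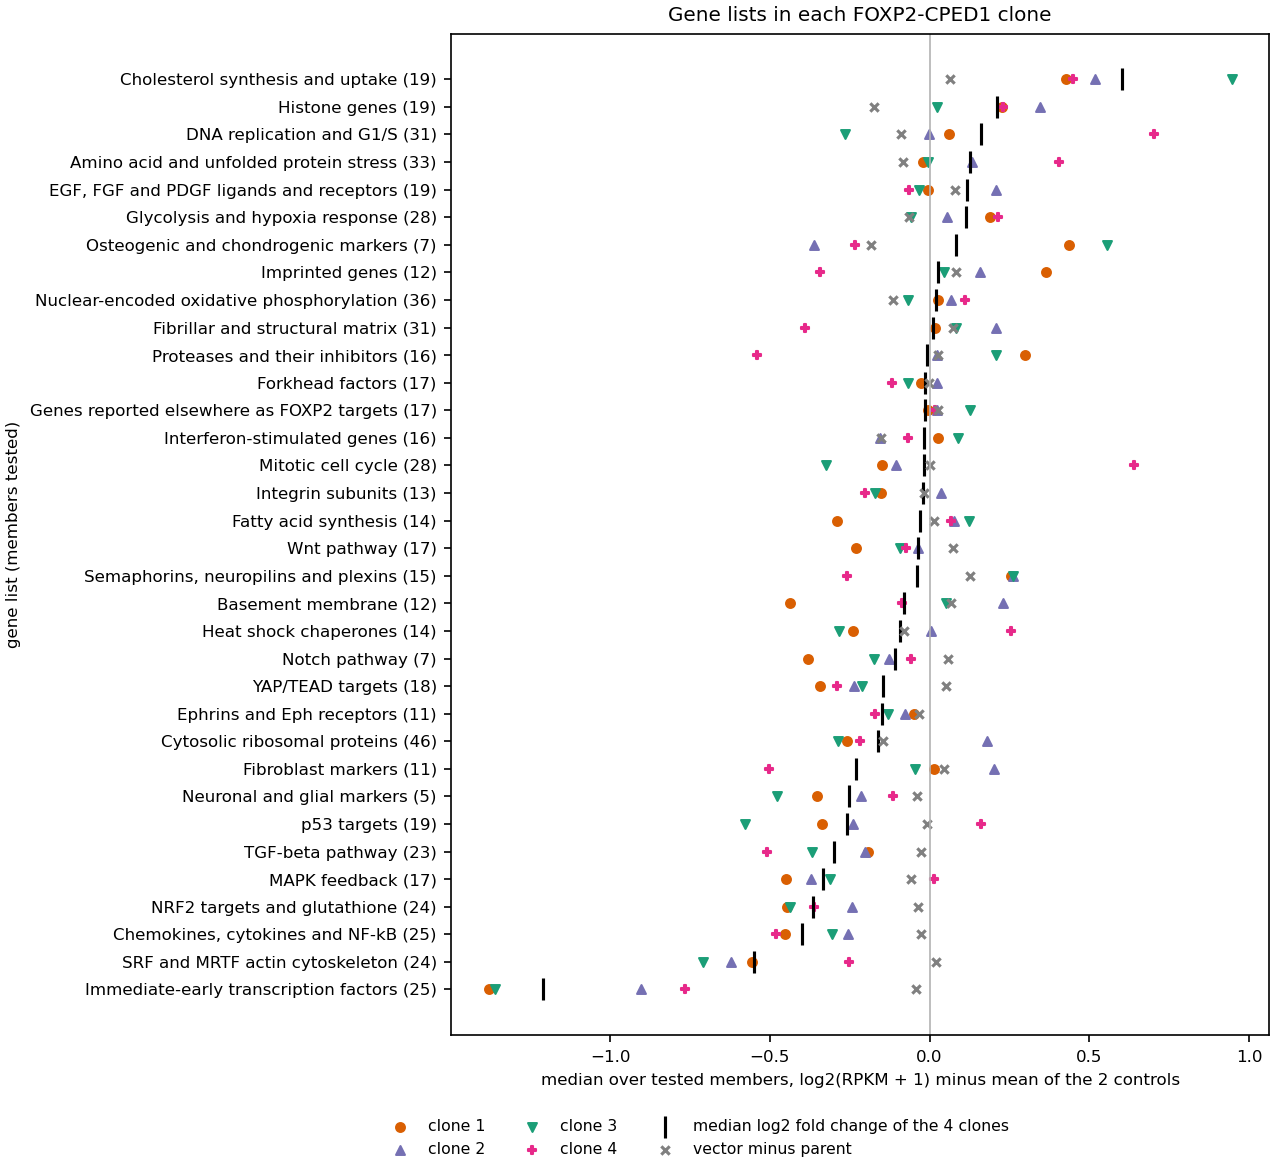
Median over the tested members of each gene list (number tested in brackets) of log2(RPKM + 1) minus the mean of the 2 controls, for clones 1 to 4 in colour, with the median log2 fold change as a black bar and vector minus parental cells as a grey cross. Clone 4 lies far to the right of the other clones for mitotic (0.641) and DNA replication genes (0.701).

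The clones differed among themselves. At least 2-fold above both controls in RPKM + 1 were 182, 68, 129 and 183 genes in clones 1 to 4. At least 2-fold below were 314, 169, 250 and 323, so clone 2 was the nearest to the controls. In all 4 clones these were 5 and 67 genes, of which 3 and 44 were also called, while 289 and 365 genes passed these limits in exactly 1 clone. Without clone 4, 17 genes were 2-fold above and 108 were 2-fold below in every remaining clone. The 5 genes above became 17 without the parental library, 16 without vector and 20 without clone 2. Leaving out a library loosens these limits, so none of these counts could fall. Over the fallen genes, which were chosen by a test on these same clones, the medians of clones 1 to 4 were -1.85, -1.75, -1.87 and -1.65, and clone 4 was the nearest to the controls for 20 of 55.

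Cell cycle genes stood higher in clone 4. All 28 tested mitotic genes lay above the control mean in clone 4, against 6, 6 and 4 in clones 1 to 3, and the list medians were -0.148, -0.105, -0.324 and 0.641. Ttk, a spindle checkpoint kinase, stood at 10.6 and 10.1 RPKM in the controls, at 12.2, 12.9 and 13.0 in clones 1 to 3 and at 20.04 in clone 4. Of 31 tested DNA replication and G1/S genes, 29 lay above the control mean in clone 4, with a median of 0.701 against 0.0621, -0.000868 and -0.264. Cdc6, which loads the replicative helicase, stood at 6.15 and 6.84 against 10.2, 7.23, 7.10 and 20.7, and Tyms, thymidylate synthase, at 18.5 and 18.7 against 32.1, 24.7, 25.4 and 50.2. Over the 4 clones 0 members of either list passed with limma (against 0.524% of all tested genes). These are values of 1 culture, and the part of cell density or growth in them, or in the immediate-early genes, was not tested.

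The genes with the largest spread between clones were led by mt-Nd6, the mitochondrial row listed at 0 in clone 3. Gpnmb, a glycoprotein of lysosomes and the cell surface, stood at 19.5 and 20.2 RPKM in the controls and at 233, 15.4, 160.1 and 3.14 in clones 1 to 4. Cxcl12, a chemokine of stromal cells, stood at 33.6 and 32.0 against 18.4, 19.9, 37.0 and 0.616. Clone 4 was the lowest library for Gpnmb and Cxcl12. Agt, angiotensinogen, ran from 1.64 (clone 4) to 134 (clone 1), Clec3b, tetranectin, from 2.20 (clone 4) to 151 (clone 2), Lbp, which binds lipopolysaccharide, from 2.48 (clone 4) to 41.1 (clone 2), Heph, a copper-dependent iron oxidase, from 0.00352 (clone 2) to 25.8 (clone 4) beside 7.88 and 39.0 in the controls and Npn2 from being listed at 0 (clone 1) to 28.5 (clone 2). None of these 8 genes passed. Of 46 cytosolic ribosomal protein genes tested, 0 passed (against 0.524% of all tested genes). These ribosomal genes had medians of -0.258, 0.181, -0.286 and -0.219 in clones 1 to 4, so clone 2 lay apart. Vector minus parental cells gave -0.145. The median log2 fold change of the list was -0.163 (-0.0709 with quantile normalization, -0.258 without clone 2, -0.0828 without the parental library).

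Gene position went with part of the differences. By chromosome names of the GRCm38 annotation, which matched 10418 tested genes, the 350 tested genes of chromosome 19 had medians of -0.31, -0.0831, -0.232 and -0.214 in clones 1 to 4, and 34.9% of them lay below both controls in all clones, against 13.5% of all tested genes. The fallen genes Npas4, Dusp5 and Cfap43 are on it, with log2 fold changes of -2.54, -2.45 and -1.72. On chromosome 14 the 382 tested genes had medians of 0.273, 0.0401, 0.267 and 0.171, and 28.3% lay above both controls, against 12.3% of all. Of its genes 1 rose, Gm16867 (log2 fold change 1.04), and 1 fell, Egr3 (-3.79). Slc25a37, Gnl3 and Uggt2, which stood higher without passing, are also on it. Chromosome 6 had medians of -0.17 and -0.181 in clones 1 and 3 but -0.0454 and -0.0509 in clones 2 and 4, and 19.1% of its genes lay below both controls. The vector minus parental median was -0.0386, 0.0147 and -0.0369 on chromosomes 19, 14 and 6. Genes of 1 chromosome share their libraries and are not independent, and copy number was not measured.

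**Figure D5:**
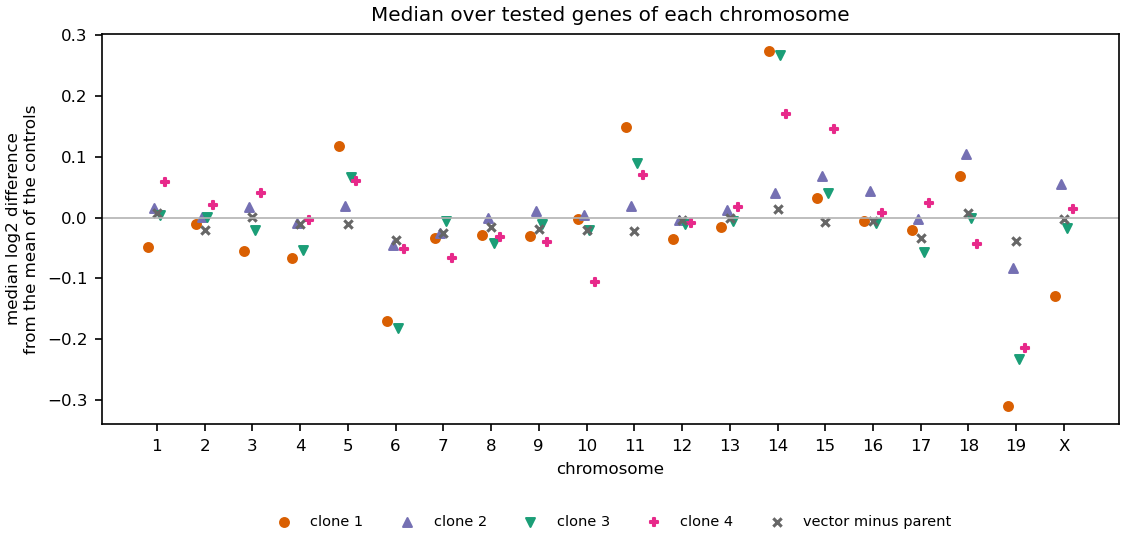
Median over the tested genes of each chromosome of log2(RPKM + 1) minus the mean of the 2 controls, for clones 1 to 4 in colour and for vector minus parental cells as grey crosses. Of the chromosomes plotted, chromosome 19 lies lowest in each clone (-0.31 in clone 1). Chromosome 14 lies highest in clones 1, 3 and 4 (0.273 in clone 1), and in clone 2 chromosome 18 does (0.105, against 0.0401 for chromosome 14).

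Markers of the fibroblast state had a high sum in every library, to which Vim alone gave 1737 to 3139.5 RPKM. Summed over the 11 tested of 15 listed fibroblast markers, RPKM ran from 5517 in clone 4 to 7541 in parental cells. Of these 11 markers 0 passed (against 0.524% of all tested genes). Their median log2 fold change was -0.229, with 8 members lower and 3 higher. The list medians of clones 1 to 4 were 0.0136, 0.202, -0.0451 and -0.502. Col1a1, a collagen chain, stood at 960.0 and 992 RPKM against 1217, 1239, 1179 and 1086, Vim, the filament protein of mesenchymal cells, at 3139.5 and 2794 against 1770.0, 1899, 1737 and 2156, and Thy1, a surface marker, at 156 and 149 against 106, 135, 108 and 96.5. Lists of markers of other cell types had lower sums, taken only over members with a row naming 1 gene. The rest had no row or only a joined one. Of 14 epithelial markers listed, 2 had such a row and summed to 1.4 to 2.96 RPKM per library (2 tested). For skeletal muscle 4 of 14 had one and summed to 3.67 to 5.75 (2 tested). For endothelial cells 3 of 11 had one and summed to 6.28 to 12.3 (2 tested). Blood and immune markers (4 of 18 with such a row) summed to 29.99 to 52.1 RPKM (4 tested). Neuronal and glial markers (6 of 20) summed to 49.5 to 75.76 (5 tested). Adipogenic markers (6 of 14) summed to 131.2 to 202.5 (4 tested) and osteogenic and chondrogenic markers (7 of 19) to 174.6 to 382.9 (7 tested). In none of these lists did a member pass. With 0.524% of all tested genes passing, lists this small could show 0 without differing from the rest. Fewer cells of a kind and less RNA per cell cannot be told apart in these bulk libraries.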

How the data were processed

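Libraries were made with the NEBNext Ultra kit from RNA taken up in Trizol, per the labels' protocols. The authors deposited 1 table of RPKM values. The genome build mm9, HISAT2 and StringTie are named in the submitters' processing notes, without versions, and the annotation and strand setting are not stated there or in the labels. The values are not counts and were given no count model, an exact 0 can be a failed estimate, and the absolute depth is unknown, so no counting interval was computed. Overlapping, antisense and copied genes may share reads.

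Of 18430 rows, 3581 name no gene (3.37 to 4.07% of the RPKM of the 6 libraries) and 987 join several genes; both kinds were left out. For 569 symbols with several rows, the row with the highest mean was used. Genes with at least 1 RPKM in at least 2 of the 6 libraries were tested as log2(RPKM + 1) with limma 3.58.1 in R 4.3.3 (empirical Bayes with a trend), and every adjusted p in the text is limma's, Benjamini-Hochberg adjusted over the 11258 genes. The FOXP2-only libraries entered 1 alternative. The steps were tested on simulated data.

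The genes named were Foxp2, Cped1, up to 15 rises and 15 falls (filled by smallest p where fewer passed), the 4 members of each list with the smallest p and the 8 genes most variable between clones, with a mean of at least 2 RPKM and no clone or model names; some genes this rule takes are not reported here. The libraries and the 40 gene lists were chosen with earlier results of these data known, and lists are described by counts and medians without a test. Symbols were matched to RefSeq promoters and to GRCm38 chromosome names. The alternatives were other pseudocounts, filters, scalings and models, joined rows added, and each library left out.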

Additional observations from a re-analysis of the deposited data

Results flagged for a closer look

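For 14 of 152 values examined, 1 clone stood apart from the other 3 by more than Dixon's limit for 4 samples. Many of these values were chosen by what they showed in these same clones. The 5% rate of that limit therefore does not apply to them, and no excess can be read from the count. Clone 4 was the outlying one for 6 genes: Plau (17.9 RPKM, against 4.604 to 5.69 in the other clones), Ttk (20), Fgd3 (2.28) and Pxdc1 (7.34) stood higher, and F3 (50.7) and Thbs1 (12.1) lower. Clone 3 was the outlying one for Arc (0.673 RPKM), Rgs3 (8.42), Ung (3.62) and mt-Nd6, which was listed at 0, and clone 2 for Fas (21.6). Of the list medians, clone 1 stood apart for fatty acid synthesis (-0.29), clone 4 for semaphorins, neuropilins and plexins (-0.257, against 0.255 to 0.26) and clone 2 for cytosolic ribosomal proteins (0.181).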

How the results depend on the processing

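Of 15 alternatives, those that kept all 6 libraries called 39 to 58 fallen and 2 to 5 risen genes (2 with a mean of at least 5 RPKM), except library quality weights with 391 and 188 (67.5% lower, against 93.2%). Leaving out 1 library gave 0 to 152 fallen and 0 to 33 risen genes (82.2% lower without clone 4), with 1731 to 2395 genes with all clones below both controls and 1702 to 2348 genes with all clones above both controls. With fewer libraries it is easier for all clones to lie on the same side of the controls. Of the 55 fallen genes, 31 were among the 39 of the fit of all 10 libraries. The 53 named called genes kept their direction in 779 of 779 comparisons with an alternative, and the 63 named genes that did not pass in 937 of 942. For the called genes, whose clones all lay on the same side of both controls, leaving out a library could not change the direction. The reversals were Agt (0.0259 with quality weights, 0.2301 without clone 4; -1.66 without clone 1), Lbp (0.006157 and 0.06573; -1.134 without clone 2) and Npn2 (0.4327 without clone 1, -1.195 without clone 2). The cause was not tested. No paired analysis was possible because the controls carry no clone numbers. With 2 controls, the spread of the control rests on 1 difference between cultures.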
